A study of Xenopus tropicalis with 24 samples.

Results

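The transcripts of 6 genes known from oocytes and eggs, cpeb1, btg4, nanos1, h1foo, zp2 and stk11, were followed through the first hours of zygotic transcription in Xenopus tropicalis embryos. The 6 genes were taken by name from 5462 single-gene labels in a table of 3' RNA-seq tags, and from every chromatin peak list by the gene to which the peaks were annotated. All embryos were wild type and were made by in vitro fertilization, and whole embryos were collected at Nieuwkoop and Faber stages 8, 9 and 10.5. The RNA libraries were made from 400 ng of mRNA, with 1 library each for untreated stages 8, 9 and 10.5, and 1 for stage 9 embryos kept in SB431542 from the 4-cell stage. SB431542 is a small molecule that blocks the kinase of Activin and Nodal type I receptors. Chromatin immunoprecipitation used pools of 250 embryos and gave 17 peak lists. These were Smad2/3, H3K4me3, H3K4me1, H3K27ac and H3K27me3 at each of the 3 stages, plus H3K4me1 and H3K27ac in inhibited stage 9 embryos.

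A frog egg is loaded with maternal mRNAs, which direct development until the embryo's own genome is transcribed at the midblastula transition. Many of these messages are held silent with short poly(A) tails and are translated after cytoplasmic polyadenylation, and many are later deadenylated and destroyed. Cpeb1 binds the cytoplasmic polyadenylation element in messages of Xenopus oocytes and switches them between silence and translation. Btg4 is an adaptor that brings the CCR4-NOT deadenylase to maternal messages in mouse oocytes and eggs. Nanos1 is a translational repressor whose mRNA sits in the germ plasm of the Xenopus egg, the cytoplasm that is inherited by the germ cells. H1foo is the oocyte linker histone, also called B4 in Xenopus and listed in RefSeq under the symbol h1-8, zp2 encodes a glycoprotein of the egg coat, and stk11 encodes Lkb1, a kinase that activates AMPK and related kinases. Smad2/3 are the effectors of Nodal signalling, H3K4me3 marks promoters, H3K4me1 and H3K27ac mark enhancers and active promoters, and H3K27me3 marks Polycomb repression.

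Tags that fell in regions with a gene label numbered 4973283 at stage 8, 6659554 at stage 9, 8030203 at stage 10.5 and 4656275 under inhibition. Levels are given as CPM, the tags of a label for every 1000000 of these tags, so that 1 tag was worth between 0.125 and 0.215 CPM. A CPM is a share of the sampled mRNA, and in whole embryos fewer cells of a type and less RNA per cell cannot be told apart. Poly(A) tail length was not measured. Whether a change in it altered how much of a message was sampled was not tested, so a CPM is not a direct measure of transcript number. Each group holds 1 listed library. Another 4 columns, named as second replicates, matched none of the listed samples and were left out. There is therefore no replicate check and no p-value here, and the 95% intervals below cover counting error only. They are exact Poisson for a level and exact binomial for a share of tags or a fold. The 7 zygotic genes of the gastrula that had a label, among them t, gsc and mix1, summed to 755 CPM at stage 10.5, which sets that library apart. They summed to 0.402 CPM at stage 8, 5.41 CPM at stage 9 and 9.02 CPM under inhibition, too low to tell those libraries apart. The Nodal targets among them did not check the inhibition either, with mix1 at 1.502 CPM in untreated and 4.72 CPM in inhibited embryos and gsc at 2.55 and 2.36 CPM. Of 13 oocyte and germ plasm markers 11 had a label. No label was found for 6 markers of maternal blood or follicle cells, so that tissue could not be looked for. The file headers give later alignment dates for stage 10.5 and for the inhibited library than for stages 8 and 9, and an effect of date cannot be told apart from stage or treatment there.

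Over the whole interval from stage 8 to stage 10.5, cpeb1, btg4, h1foo and stk11 were lower by 2-fold or more, and no gene of the 6 was higher by that much. Among 5231 labels that reached 10 CPM in 1 or both of the libraries, 24.6% were 2-fold lower and 14.7% were 2-fold higher. Ratios were taken as log2 of CPM plus 1. The median log2 ratio was -1.71 over the 6 genes and -0.21 over all labels. The steps within this interval share the stage 9 library and are not independent of each other. From stage 8 to stage 9, 2 of the 6 genes, cpeb1 and stk11, were 2-fold lower and 0 were higher, against 28.8% lower and 7.29% higher among 4953 labels. The share of the genes that were lower was close to the background in that step, and the median of the 6 genes was -0.36 beside -0.45 for all labels. From stage 9 to stage 10.5, 4 of the 6 genes, cpeb1, btg4, h1foo and zp2, were 2-fold lower and 0 were higher, against 17.2% lower and 29% higher among 5045 labels. There the median of the 6 genes was -1.33 and that of all labels 0.29. The 6 genes were chosen with earlier results of these data known, so these contrasts with all labels are a description only.

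**Figure D1:**
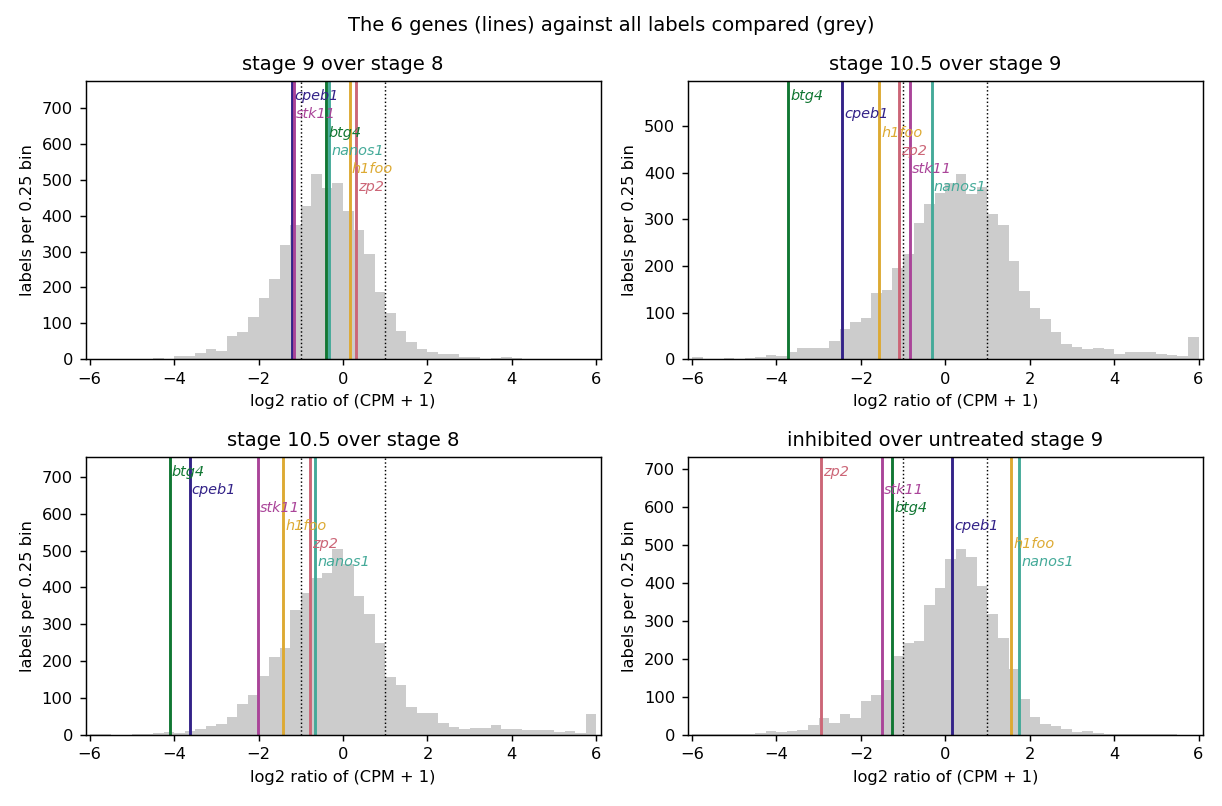
Histograms of the log2 ratio of (CPM + 1) over all labels that reached 10 CPM in either library (grey, labels per bin, values beyond the axis in the end bins), with the 6 genes as coloured lines and the 2-fold limits dotted. In both comparisons with stage 10.5, btg4 and cpeb1 lie in the lower tail, and under inhibition zp2 lies in the lower tail while nanos1 and h1foo lie on the upper side.

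Of the 2 regulators of maternal mRNA, cpeb1 was counted 2044 times at stage 8 (411 CPM), 1189 times at stage 9 (179 CPM) and 258 times at stage 10.5 (32.1 CPM). In CPM of the summed label its level fell at each step, and the counting intervals of the 3 stages did not overlap. The size of the first step depended on scaling and on the choice of regions. With each alternative tried alone, its log2 ratio lay between -1.20 and -0.48. Scaling and choice of regions were not changed together, so whether a fall before stage 9 would remain was not tested. The level at stage 8 was 12.8-fold that at stage 10.5 (95% interval 11.2 to 14.6), and 0.516% of all labels had a lower log2 ratio in that comparison. The btg4 label was counted 4766 times at stage 8 (958 CPM), 4855 times at stage 9 (729 CPM) and 438 times at stage 10.5 (54.5 CPM). Most of the fall of the label therefore lay after stage 9, where its level was 13.4-fold that at stage 10.5 (12.1 to 14.8). Stage 8 was 1.31-fold above stage 9 (1.26 to 1.37). The btg4 region with most tags fell more in that first step, with a log2 ratio of -0.97 in place of -0.39. Over the whole interval btg4 fell by 4.11 on the log2 scale, the largest drop of the 6 genes, and 0.210% of all labels had a lower ratio.

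The oocyte linker histone h1foo was counted 20395 times at stage 8 (4101 CPM), 30437 times at stage 9 (4570 CPM) and 12384 times at stage 10.5 (1542 CPM). In CPM it stayed near its starting level until stage 9, which depended on the scaling (below). It was then 2.96-fold lower at stage 10.5 (2.90 to 3.03). The egg coat gene zp2 was counted 205, 342 and 189 times at stages 8, 9 and 10.5, which is 41.2, 51.4 and 23.5 CPM. Its level at stage 9 was 2.18-fold that at stage 10.5 (1.82 to 2.62), with a lower bound under 2-fold. The germ plasm gene nanos1 was counted 238, 252 and 241 times, which is 47.9, 37.8 and 30.0 CPM. Among the 6 genes nanos1 changed least between the highest and lowest of the 3 stages: stage 8 was 1.59-fold above stage 10.5 (1.33 to 1.92). The kinase gene stk11 was counted 1177, 698 and 466 times, which is 237, 105 and 58.0 CPM, so that stage 8 was 4.08-fold above stage 10.5 (3.66 to 4.55). This fall of stk11 was smaller at the far end of the gene: 2.05-fold (1.72 to 2.44) over its 3' end regions, and 1.84-fold (1.53 to 2.21) in the region with most tags, where the 2-fold call was lost.

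**Figure D2:**
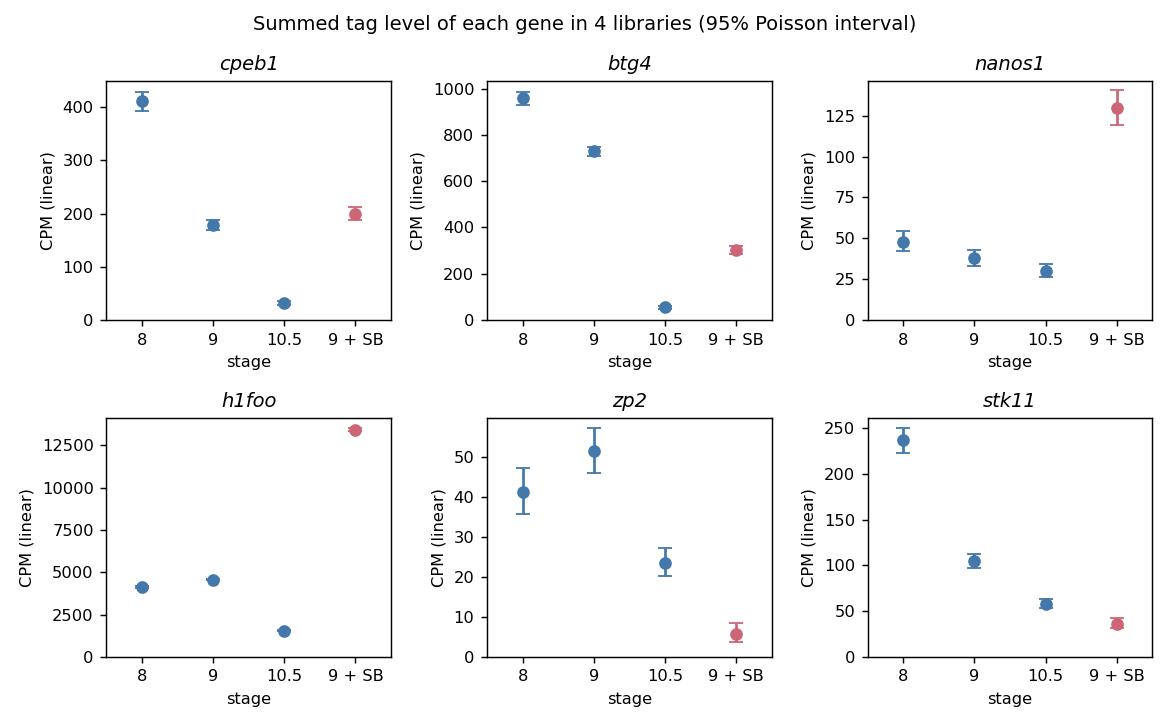
CPM of each gene, on a linear axis of its own, in the 3 untreated stages (blue) and in inhibited stage 9 embryos (red, 9 + SB), with 95% Poisson intervals of the count. The levels of cpeb1, btg4 and stk11 at stage 10.5 lie far below those at stage 8, and h1foo and nanos1 are highest in the inhibited library.

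The 2-fold calls from stage 8 to stage 9 rested on the scaling. With TMM scaling the log2 ratio of that step was -0.69 for cpeb1 and -0.66 for stk11, and with median-of-ratios scaling -0.67 and -0.64, and no gene was then 2-fold lower. These scalings moved the median of all labels by 0.52 and 0.55 in that step, and btg4 and nanos1, lower by under 2-fold in CPM, came out slightly above 0. The log2 ratio of h1foo in that step became 0.66 and 0.69, in place of 0.16 in CPM. That of zp2 became 0.81 and 0.83, in place of 0.31. In the step from stage 9 to stage 10.5 the same scalings moved the median by -0.28 and -0.31. There stk11 joined the genes that were 2-fold lower, at -1.11 and -1.14. From stage 8 to stage 10.5 the same 4 genes were lower by 2-fold under both.

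The 6 genes held 37 regions of tags, and the regions of a gene did not always move together. In the table a region written with its start above its end is taken as lying on the reverse strand. Over 4826 labels whose strand could be read from the annotated distances of the peaks, between 85.9% and 91.6% of the tags in a library lay in the orientation of the gene. That share was 85.9% at stage 8, 91.6% at stage 9, 90.6% at stage 10.5 and 88.6% under inhibition. By the same distances cpeb1, btg4, nanos1 and stk11 are on the reverse strand of their scaffolds. For h1foo and zp2 the strand could not be read, since no peak carries their names. The annotation of the regions ignored strand, so a label sums both orientations, and tags of a gene and of a transcript opposite to it cannot be told apart in the sum. All positions are on scaffolds of the xenTro2 assembly.

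For cpeb1, on scaffold 417 with its TSS at 496559, most tags came from the far end of the gene, at 460545 to 461167, about 36 kb downstream of the TSS. This region, in the orientation of the gene, held 849 tags at stage 8, 815 at stage 9, 170 at stage 10.5 and 673 under inhibition. In CPM that is 171, 122, 21.2 and 145, so the fall between stages 8 and 9 was 1.39-fold here (1.27 to 1.54), in place of 2.30-fold for the summed label (2.14 to 2.47). The opposite region at 460500 to 460621 held 672, 276, 42 and 94 tags. The 8 regions outside this end, spread over the gene up to the TSS, together held 417 tags at stage 8 and 39 at stage 9, then 27 at stage 10.5 and 158 under inhibition. They carried 20.4% of the cpeb1 tags at stage 8 (18.7 to 22.2) and 3.28% at stage 9 (2.34 to 4.46). Thus the tags away from the 3' end were 14.3-fold higher at stage 8 than at stage 9 (10.3 to 20.4), and those of the 3' end regions 1.89-fold higher (1.76 to 2.04). From stage 9 to stage 10.5 the 3' end regions fell 6.003-fold (5.21 to 6.94), which is close to the 5.56-fold of the whole label.

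For stk11, on scaffold 289 with its TSS at 528230, the position of the tags decided the direction of the first step. The regions at the far end of the gene, between 497973 and 498371, held 303 tags at stage 8, 614 at stage 9, 239 at stage 10.5 and 99 under inhibition. These are 60.9, 92.2, 29.8 and 21.3 CPM, a rise of 1.51-fold from stage 8 to stage 9 (1.32 to 1.74). The 3 regions within 600 bp of the TSS held 847 tags at stage 8, 68 at stage 9, 221 at stage 10.5 and 67 under inhibition. They made up 72.0% of the stk11 tags at stage 8 (69.3 to 74.5), 9.74% at stage 9 (7.64 to 12.2) and 47.4% at stage 10.5 (42.8 to 52.1). The 2.26-fold fall of the summed label between stages 8 and 9 (2.05 to 2.48) came from the regions at the TSS, where stage 8 was 16.7-fold above stage 9 (13.0 to 21.7). From stage 9 to stage 10.5 the regions at the far end fell by 3.10-fold (2.66 to 3.61).

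For btg4, on scaffold 39 with its TSS at 3180002, the regions lay within about 2 kb of the TSS and ran in both orientations. In the orientation of the gene there were 1958 tags at stage 8, 1680 at stage 9, 274 at stage 10.5 and 692 under inhibition. In the opposite orientation there were 2808, 3175, 164 and 720. The opposite tags made up 58.9% of the label at stage 8 (57.5 to 60.3), 65.4% at stage 9 (64.0 to 66.7) and 37.4% at stage 10.5 (32.9 to 42.2). Both orientations fell after stage 9, by 7.39-fold in the orientation of the gene (6.50 to 8.43) and by 23.3-fold in the opposite one (19.9 to 27.5). The largest region of the label, at 3177723 to 3178143 in the orientation of the gene, held 1690, 1149, 252 and 653 tags. In CPM that is 340, 173, 31.4 and 140, so on that scale this region fell in both steps. Its log2 ratio was -0.97 from stage 8 to stage 9 and -2.42 from stage 9 to stage 10.5. The first was not recomputed with the other scalings, which moved the median of all labels by 0.52 and 0.55 in that step. Smaller regions in the gene's orientation differed from stage 8 to stage 9. That at 3178873 to 3179047 rose from 13 to 203 tags and that at 3179151 to 3179258 from 14 to 121. The one at 3179828 to 3180013 went from 241 to 207.

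**Figure D3:**
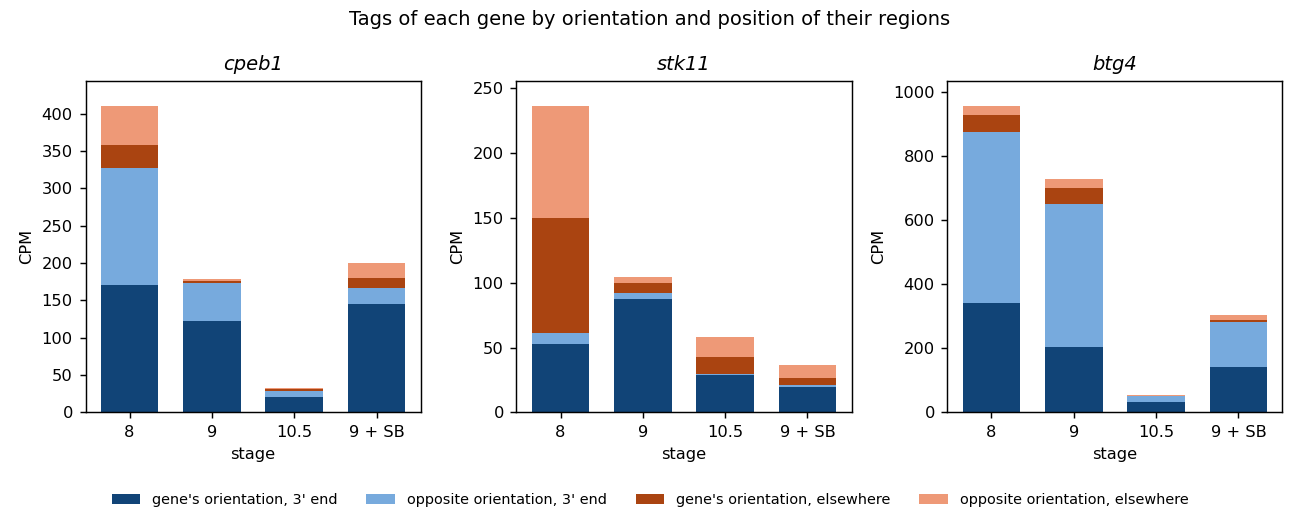
Stacked CPM of cpeb1, stk11 and btg4 in each library, split by whether a region runs in the gene's orientation and whether it lies within 1 kb of the gene-oriented region with the most tags (3' end). The orange parts, away from the 3' end, are a large share of stk11 and cpeb1 at stage 8 and small at stage 9, and 65.4% of the btg4 bar at stage 9 is in the opposite orientation.

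Of the other genes nanos1 was the simplest, while within h1foo and within zp2 some regions moved in opposite directions. For nanos1, on scaffold 605, 1 region at 512343 to 512776 in the orientation of the gene held 225 tags at stage 8, 234 at stage 9, 232 at stage 10.5 and 584 under inhibition, and the opposite region beside it held between 9 and 20. For h1foo, on scaffold 196, the region at 1648865 to 1649521 held 15385, 26940, 11286 and 57861 tags. A second region at 1647851 to 1648054 held 3691, 2018, 742 and 1251, and so fell at stage 9 while the larger one rose. For zp2, on scaffold 14, the region at 3236026 to 3236191 held 97, 101, 161 and 22 tags, and was at 15.2 CPM at stage 9 and 20.0 CPM at stage 10.5. The fall of the zp2 label after stage 9 came from the regions at 3235166 to 3235251 and at 3235787 to 3235871, which held 95 and 143 tags at stage 9 and 6 each at stage 10.5. The log2 ratio of zp2 in that step was 0.38 in the region with most tags and -1.09 for the label.

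Under Nodal inhibition the 6 genes did not move together. At stage 9, nanos1 and h1foo were 2-fold or more higher in the inhibited library, btg4, zp2 and stk11 were 2-fold or more lower, and cpeb1 was within 2-fold. Among 4819 labels compared, 20.5% were 2-fold higher and 16.7% were 2-fold lower. The median log2 ratio was -0.55 over the 6 genes and 0.21 over all labels.

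The 2 genes that were higher, nanos1 and h1foo, stood above all 3 untreated libraries. The nanos1 label had 604 tags (130 CPM) in inhibited embryos beside 252 (37.8 CPM) in untreated ones, a 3.43-fold difference (2.95 to 3.99). The h1foo label had 62534 tags (13430 CPM) beside 30437 (4570 CPM), a 2.94-fold difference (2.90 to 2.98). The difference was present in the main region of both genes. For h1foo 2 smaller regions went the other way, with 303 CPM in untreated and 269 CPM in inhibited embryos at 1647851 to 1648054, and 31.4 and 20.6 CPM at 1648505 to 1648613. Across the scalings, pseudocounts and choices of regions that were tried, the log2 ratio lay between 1.56 and 1.81 for nanos1 and between 1.36 and 1.62 for h1foo.

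The zp2 label had 27 tags in inhibited embryos (5.80 CPM, 3.82 to 8.44), beside 342 in untreated ones (51.4 CPM). That is 8.86-fold lower (5.98 to 13.6), and 1.95% of all labels had a lower ratio. The size of this difference depended on the regions: the log2 ratio was -2.95 for the label, -1.498 in the zp2 region with most tags and -1.24 with unlabelled tags within 1 kb added. All 4 labelled zp2 regions were low in the inhibited library, with between 1 and 22 tags. The region at 3229113 to 3229182 was also near 0 in untreated stage 9 embryos, with 3 tags beside 1. An unlabelled region beside zp2, at 3236358 to 3236626, went the other way, with 14.1 CPM in untreated and 20.0 CPM in inhibited embryos. The stk11 label had 169 tags (36.3 CPM) beside 698 (105 CPM), 2.89-fold lower (2.44 to 3.44). Its regions at the far end of the gene were 4.34-fold lower (3.502 to 5.42), while those at the TSS had 14.4 CPM in inhibited and 10.2 CPM in untreated embryos, a ratio of 1.41 whose interval, 0.990 to 2.004, spans 1. The btg4 label had 1412 tags (303 CPM) beside 4855 (729 CPM), 2.40-fold lower (2.27 to 2.55). In the orientation of the gene alone btg4 was 1.70-fold lower (1.55 to 1.86), and the opposite tags 3.08-fold lower (2.84 to 3.35). The 2-fold call of btg4 thus rested on the opposite orientation. In the btg4 region with most tags the difference was small, with 140 CPM in inhibited and 173 CPM in untreated embryos, a log2 ratio of -0.30. The cpeb1 label had 931 tags (200 CPM) beside 1189 (179 CPM), a ratio of 1.12 (1.03 to 1.22). Away from its 3' end cpeb1 had 33.9 CPM in inhibited and 5.86 CPM in untreated embryos, a 5.79-fold difference (4.06 to 8.45), and at the 3' end 166 and 173 CPM. On that measure the inhibited library stood between stage 8 and stage 9. It also did so over 4826 labels in the share of tags in the gene's orientation, at 88.6% beside 85.9% and 91.6%. For stk11 alone that share was likewise between, at 69.2% beside 59.9% and 90.5%. It lay above both stages for cpeb1 (79.6% beside 49.0% and 70.3%), btg4 (49.0% beside 41.1% and 34.6%) and nanos1 (96.7% beside 94.5% and 92.9%). Tags away from the 3' end were not counted over all labels. Whether the order seen away from the 3' end is particular to cpeb1 was therefore not tested.

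The wider pathways of the genes are given by counts of the other listed genes, each member left out of its own list. They are read against the shares of all labels above: from stage 8 to stage 10.5, 24.6% lower and 14.7% higher, from stage 9 to stage 10.5, 17.2% and 29%, and under inhibition 16.7% and 20.5%. With so few genes to a list, no list is called apart from all labels. Of 25 listed genes of translational control of maternal mRNA 16 had a label. Among the 15 besides cpeb1, 6 were 2-fold lower and 1 was higher from stage 8 to stage 10.5, with a median log2 ratio of -0.54 beside -0.21 for all labels. In the step from stage 9 to stage 10.5, where cpeb1 fell most, 1 of these 15 was lower and 3 were higher, with a median of 0.14 beside 0.29. The largest ratios from stage 8 to stage 10.5 belonged, besides cpeb1, to cpeb3, a paralogue, at -1.80, and to msi1, an RNA-binding protein of neural progenitors, at 3.89, from 8 tags at stage 8 to 302 at stage 10.5.

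Of 19 deadenylation genes 11 had a label. Among the 10 besides btg4, 4 were lower and 1 was higher from stage 8 to stage 10.5, with a median of -0.67. The higher one was btg1, of the same family as btg4, which went from 1307 tags (263 CPM) to 10905 (1358 CPM), a log2 ratio of 2.37. In the step from stage 9 to stage 10.5, where btg4 fell most, 0 of these 10 were lower and 0 were higher, with a median of 0.42.

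Of 17 germ plasm genes 9 had a label. Among the 8 besides nanos1, 2 were lower and 0 were higher from stage 8 to stage 10.5, a share near that of all labels, with a median of -0.14. The lower ones were piwil2, a Piwi protein of the germ line, at -1.85, and plin2, a lipid droplet protein, at -1.72. In this list dazl, an RNA-binding protein of germ cells, and ddx25, a helicase known as DEADSouth, are named here after their values were seen. The dazl label lay between 116 and 133 CPM and the ddx25 label between 32.4 and 35.7 CPM in all 4 libraries. They varied least of the 9 labelled genes of the list. In the others the highest library was between 2.21-fold (tdrd7) and 7.30-fold (piwil2) the lowest. Under inhibition 1 of the 8 was lower, plin2 at -1.39, and 1 was higher, piwil2 at 1.24 (127 tags beside 73), with a median of 0.32.

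Of 12 genes of oocyte chromatin 10 had a label, and 8 besides h1foo were compared. From stage 8 to stage 10.5, 2 were lower and 3 higher, with a median of 0.10. The lower side held npm2, the nucleoplasmin of the egg, at -2.03, and the higher side npm3, of the same family, at 2.43, and h1fx, another linker histone, at 1.92. The h1fx label went from 2024 tags (407 CPM) at stage 8 to 12431 (1548 CPM) at stage 10.5, so the linker histone labels h1foo and h1fx moved in opposite directions. Under inhibition 1 of the 8, npm3, was higher and 0 were lower, with a median of 0.40.

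Of 8 egg coat genes 3 had a label, zp2, zp4 and zpax. Under inhibition zpax had 8 tags beside 79 in untreated embryos and was 2-fold lower, and zp4 was at -0.74. Between stages 8 and 10.5 zpax was 2-fold lower, at -1.505, and zp4 was at -0.53. Of 20 genes of the Lkb1 and AMPK pathway 9 had a label, and 7 besides stk11 were compared. Between stages 8 and 10.5, 2 were lower and 1 was higher, with a median of -0.24. Under inhibition 1 was lower and 0 were higher, with a median of 0.01. The lower one was strada, the pseudokinase partner of Lkb1, which went from 496 tags (74.5 CPM) to 87 (18.7 CPM). Of 15 genes of the oocyte and meiosis 6 had a label, none of them a member. Over the whole interval 3 were lower and 0 higher, with a median of -0.89. Under inhibition 1 was lower, ccna1, an A-type cyclin of the early embryo, from 2615 CPM to 652 CPM, with a median of -0.50.

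In their profile over the 4 libraries, the 6 genes were compared with 4911 single-gene labels by the Euclidean distance between log2(CPM + 1) values centred on each gene's own mean. With 4 values to a profile, the distances are a description. The labels closest to cpeb1 were mink1, usp33 and heca, at distances of 0.24, 0.25 and 0.25. Those closest to btg4 were MGC89871, rbm11 and rdh13, at 0.33, 0.45 and 0.50. Those closest to nanos1 were gtdc1, rnft1 and tmem184c, at 0.06, 0.24 and 0.26. The gtdc1 profile, 42.0, 33.5, 25.2 and 110 CPM at stages 8, 9 and 10.5 and under inhibition, followed nanos1 in every library. Those closest to h1foo were lig4, tbc1d7 and c6orf57, at 0.33, 0.37 and 0.37. Those closest to zp2 were rnaseh2a, sgsm3 and rpl36, at 0.22, 0.27 and 0.29, and those closest to stk11 were pldn, atp13a1 and dgcr14, at 0.22, 0.25 and 0.25. Among the 6 genes themselves the closest pairs were nanos1 with h1foo, at 0.94, and cpeb1 with btg4, at 1.11, and the farthest was h1foo with zp2, at 4.02.

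In the chromatin lists, 51 peaks within 50 kb of a TSS carried the name of 1 of the genes, and 4 of the 6 genes had any. The peak lists hold presence and extent, with no input track beside them here, and the scores are the authors' own, ranked only within a list. The lists differ widely in length, so a gene that appears in a longer list may have been under the limit of a shorter one. There were 19 such peaks for cpeb1, 13 for stk11, 12 for btg4 and 7 for nanos1. A further 128 peaks named for btg4 lay beyond 50 kb, on a scaffold where no other annotated start site was closer to them. No peak in any list was named for h1foo or zp2, and 8.95% of single-gene labels likewise had none within 50 kb. By position, the peak nearest to the h1foo tag regions was an H3K4me1 peak of stage 10.5, 5.07 kb away and annotated to rho. In all other lists with a peak on its scaffold the nearest peak was at least 43.4 kb from h1foo, and for zp2 the nearest was 43.6 kb away.

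**Figure D4:**
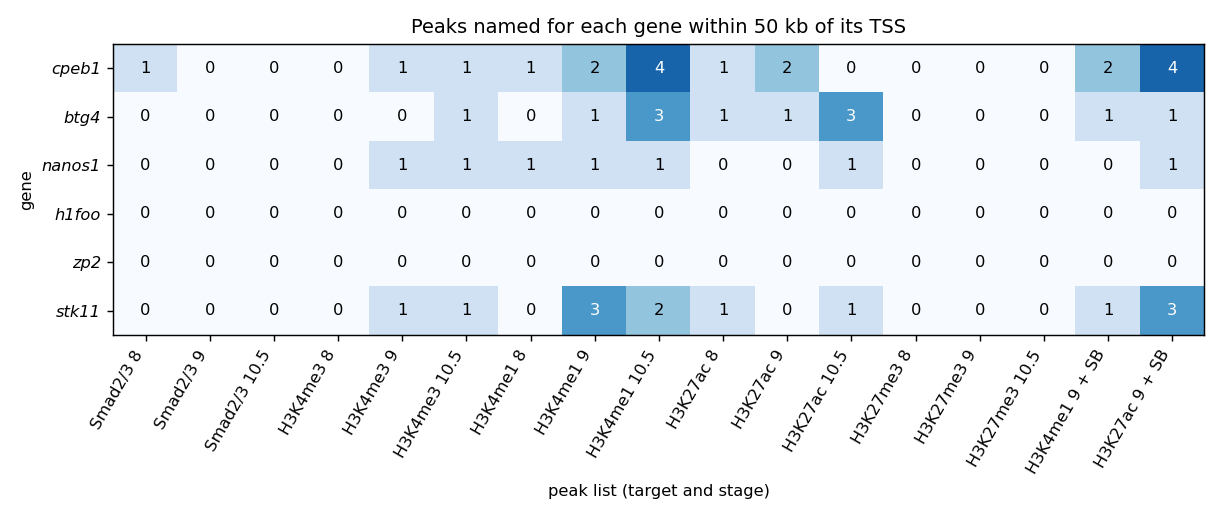
Number of peaks named for each gene within 50 kb of its TSS in each of the 17 lists (target and stage, + SB for inhibited embryos). The rows of h1foo and zp2 and the columns of H3K27me3 hold 0 throughout, and H3K27ac at cpeb1 goes from 1 and 2 peaks to 0 at stage 10.5.

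H3K4me3 was listed near the TSS of cpeb1, nanos1 and stk11 at stages 9 and 10.5, and not at stage 8. The stage 8 list holds 2010 peaks and that of stage 9 6839, so peaks as weak as those of cpeb1 and nanos1 at stage 9 may have been under the limit at stage 8. None of the 6 genes had an H3K4me3 peak at stage 8, as against 14.9% of labels. By stage 9 it was named for 3 of the 6, beside 57.5% of labels, and by stage 10.5 for 4 of the 6, beside 82.1%. The stage 9 peak at stk11 spanned 526536 to 528587 over the TSS and ranked 1044 of 6839 in its list. The cpeb1 peak, at 494434 to 496721 over the TSS and intron 1, ranked 6167, and the nanos1 peak, centred 1059 bp upstream of the TSS, ranked 5076. At stage 10.5 all 3 were present again and an H3K4me3 peak was named for btg4 at 33.4 kb upstream, so that btg4 had no H3K4me3 peak near its TSS at any stage. The summed labels of cpeb1 and stk11 were lower in CPM at stages 9 and 10.5, where these peaks were listed, than at stage 8. The 3' end regions of stk11 went the other way at stage 9, from 60.9 to 92.2 CPM, and stood at 29.8 CPM at stage 10.5. A link of the peaks to the tags was not tested.

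H3K4me1 was named for 2 of the 6 genes at stage 8, cpeb1 and nanos1, beside 47% of labels. At stage 9 it was named for 4, beside 83.6%, and at stage 10.5 for 4, beside 87%. The cpeb1 peak over the TSS was among the highest of its list at stage 9, where it spanned 493337 to 497776 and ranked 413 of 25975. At stages 9 and 10.5 a second cpeb1 peak lay 32.7 kb into the gene, in intron 10, and at stage 10.5 there were weaker ones in intron 1 and upstream. In inhibited embryos H3K4me1 was named for 3 of the 6 genes, beside 74.4% of labels. It was present at cpeb1, over 491604 to 498186 with rank 473 of 17162, at stk11 as 1 broad peak of 9514 bp, and at btg4 33.5 kb upstream. No H3K4me1 peak was named for nanos1 in that list, while at untreated stage 9 there was 1, of 1154 bp and rank 10563 of 25975. The inhibited list is the shorter one, and how many labels lost an H3K4me1 peak in this way was not counted. The untreated stage 9 H3K4me1 sample is labelled as repeated in a named pool, and the part of that in this difference was not tested.

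H3K27ac was named for 3 of the 6 genes at stage 8, beside 42.9% of labels, for 2 at stage 9, beside 54.8%, and for 3 at stage 10.5, beside 77.6%. At cpeb1 it covered the TSS at stage 8 (494361 to 497158, a weak peak of rank 7088 of 8078). It also did so at stage 9 (494304 to 496963, rank 4413 of 11314). At stage 10.5 no peak was named for cpeb1. The nearest H3K27ac peak of any name then lay 61.8 kb from the TSS. Of 2040 single-gene labels with H3K27ac within 50 kb at both stages 8 and 9, 3.28% had none at stage 10.5. H3K4me3 and H3K4me1 peaks still covered the cpeb1 TSS at stage 10.5, and cpeb1 stood at 32.1 CPM.

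At btg4 the H3K27ac was broad and lay upstream: 6814 bp at stage 8, with rank 594 of 8078, and 12121 bp at stage 9, reaching over the TSS (3178464 to 3190584). At stage 10.5 a peak of 6180 bp centred 7.64 kb upstream and a weak one at 1.72 kb overlapped the span of the stage 9 peak. Neither covered the TSS, and a further peak at 33.5 kb upstream lay outside that span. The btg4 upstream peak thus remained listed while btg4 tags dropped, but its rank went from 1570 of 11314 at stage 9 to 5717 of 23275. At stk11 an H3K27ac peak was named at stage 8 and at stage 10.5. That of stage 8 was weak, with rank 7088 of 8078, and that of stage 10.5 ranked 8114 of 23275. At stage 9 the nearest H3K27ac peak was a broad one annotated to cnn1, 13.7 kb from the TSS. At nanos1 the first H3K27ac peak in untreated embryos was that of stage 10.5, centred 764 bp upstream and ranked 4377 of 23275.

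In inhibited stage 9 embryos H3K27ac was named for 4 of the 6 genes, cpeb1, btg4, nanos1 and stk11, beside 64% of labels. At nanos1, where untreated stage 9 had none by name, a peak of 883 bp lay 1246 bp upstream with rank 3133 of 16105. The inhibited list is the longer one, with 16105 peaks beside 11314 at untreated stage 9. The share of labels that gained an H3K27ac peak in this way was not counted. No H3K4me1 peak was named for nanos1 in inhibited embryos. The nanos1 tags were 3.43-fold higher in the inhibited RNA library, and a link of the peak to the tags was not tested. At btg4 the broad stage 9 peak was not in the inhibited list. The only inhibited peak named for it within 50 kb was one of 333 bp at 33.5 kb upstream. Beyond 50 kb, 14 H3K27ac peaks were named for btg4 in the untreated and 14 in the inhibited stage 9 list. Of 2427 labels with H3K27ac within 10 kb at untreated stage 9, 29.9% had none within 10 kb in the inhibited list. At cpeb1 the promoter peak was listed in both, and 3 more peaks lay in the gene under inhibition, at 9.25, 31.2 and 34.0 kb from the TSS. A weak peak of untreated stage 9 in intron 4, 24.6 kb from the TSS (rank 9553 of 11314), had no counterpart in the inhibited list. At stk11 there were 3 peaks under inhibition, 1 of them over the TSS (526584 to 528557). The stk11 tag regions at the TSS were at 14.4 CPM in inhibited and 10.2 CPM in untreated embryos, and the fall of the label lay at the far end of the gene. The aligner differed between the treated and untreated histone libraries, per the submitters' processing notes, and its part in these differences was not tested.

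Smad2/3 was named within 50 kb for cpeb1 at stage 8 and for none of the 6 genes at stages 9 and 10.5. Such a peak was rare for any label: 1.72% at stage 8, 3.2% at stage 9 and 5.66% at stage 10.5. The file headers describe the calls of the later stages as stricter and those of stage 9 as pooled, so the presence of a Smad2/3 peak is not matched in threshold between stages. The cpeb1 peak, 471708 to 471954 on scaffold 417, lay in intron 4, 24.7 kb from the TSS, and ranked 29 of 207. At stage 9 a weak H3K27ac peak, 471506 to 472331 with rank 9553 of 11314, covered it. No other list had a peak over it, the inhibited lists included. A tag region in the orientation of cpeb1, 471504 to 471644, lay beside it and held 50 tags at stage 8, 4 at stage 9, 6 at stage 10.5 and 31 under inhibition. At stage 9 a pair of Smad2/3 peaks was named for nanos1, but they lay 158 kb upstream. H3K27me3 was named within 50 kb for none of the 6 genes at any stage, as for nearly all labels: 0.11% of them had one at stage 8, then 0.165% at stage 9, then 0.494% at stage 10.5. Those lists hold 75, 81 and 179 peaks in all.

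**Figure D5:**
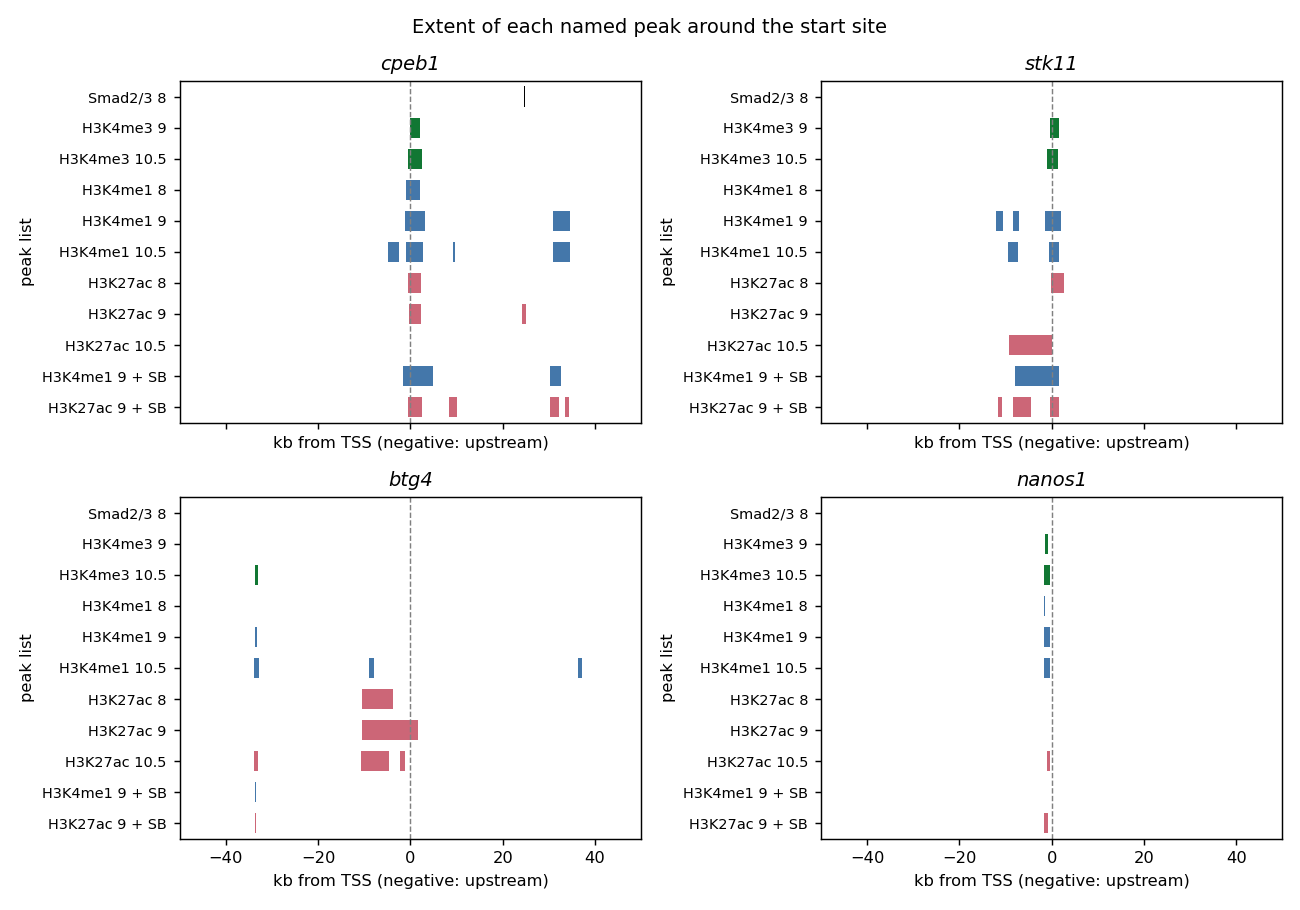
Extent of each peak named within 50 kb of the TSS for cpeb1, stk11, btg4 and nanos1 (kb, negative upstream). The 11 lists with any such peak are shown. Bars are coloured by target: black Smad2/3, green H3K4me3, blue H3K4me1, red H3K27ac. At cpeb1 a peak sits on the TSS in each histone list shown except H3K27ac at stage 10.5, and at btg4 the broad H3K27ac peak that reaches the TSS at stage 9 is not in the inhibited list, which holds a short one 33.5 kb upstream.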

How the data were processed

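The deposited files were used as they are. Per the submitters' processing notes, the ChIP-seq tools were BWA or Bowtie for alignment, MACS2 for peaks and HOMER for their annotation. No version, peak calling setting or RNA aligner is given in those notes. The RNA table holds deposited raw counts of tags for 46039 called regions, annotated on xenTro2 without regard to strand, per the file headers. The deposited score of each peak gave ranks within its own list, the kurtosis score of each region was not used, and the GC fraction deposited for each peak was not reported. Distances to the TSS and gene names are the authors' annotation. Per the peak names inside it, the stage 9 H3K27ac list carries a prefix of the preceding stage, and its stage rests on its labels. Input libraries have no list and were not analysed here. Another 4 per-sample columns of the table, named as second replicates of the same conditions, could be matched to none of the listed samples and were left out of every step.

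Summing regions by label gave 5944 labels, 482 of them naming several genes. Unlabelled regions, 29.1% to 32.6% of the tags of a library, stayed out of CPM. A label was compared at 10 CPM or more in the higher library of the pair, with a pseudocount of 1 CPM, and counted as changed at 2-fold. Fold intervals are conditional exact binomial intervals. Their computation was checked on simulated Poisson counts, which follow the model the interval assumes, so the check does not cover variation between libraries. PCR copies carry no molecular identifiers, so intervals cover counting error only. The strand and TSS of a gene were inferred from peak midpoints and deposited distances. The table has no edgeR or DESeq2 test, since each group has 1 library; edgeR 4.0.16 gave TMM factors and DESeq2 1.42.0 median-of-ratios factors as alternatives, beside Python 3.11.15, pandas 2.3.3 and SciPy 1.17.1. The text names all 6 genes, at most 3 genes with the largest ratios per list and comparison, and 3 labels closest in profile. Outside that rule, dazl and ddx25 were named after their values were seen. The members and lists were chosen with earlier results of these data known. Gene symbols were matched to RefSeq names for all 6 genes.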

Additional observations from a re-analysis of the deposited data

Results flagged for a closer look

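Tags outside the labelled regions were found beside zp2 and h1foo, above the 3 tags that a count of 0 allows. They entered the values above only as a choice of regions, as in the zp2 log2 ratio of -1.24 under inhibition. On scaffold 14 an unlabelled region 167 bp beyond the last zp2 region, 3236358 to 3236626, held 344 tags at stage 8, 94 at stage 9, 333 at stage 10.5 and 93 under inhibition, more than all labelled zp2 regions together at stages 8 and 10.5 and in the inhibited library. Smaller ones at 3236433 to 3236500 and 3237042 to 3237226 held 18 and 21 tags at stage 8. With these added, zp2 had 118 CPM at stage 8, 72.8 at stage 9, 68.4 at stage 10.5 and 30.3 under inhibition. On scaffold 196, beside h1foo, unlabelled regions at 1649382 to 1649549 and 1649651 to 1650115 held 83 and 84 tags at stage 8, which is small beside the 20395 tags of the h1foo label. Which transcripts these tags belong to was not tested.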

How the results depend on the processing

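No paired analysis was made because each group holds 1 listed library. Of 139 recomputed counts, 129 stayed within 1.5 times the reported one. The count of genes 2-fold lower from stage 8 to stage 9, reported as 2, was 0 with TMM scaling, with median-of-ratios scaling and with only the region with most tags, and also 0 with 2 alternatives chosen after seeing the data, regions in the gene's orientation only and 3' end regions only. From stage 8 to stage 10.5 the count of lower genes was 3 in place of 4 with only the region with most tags, where stk11 was at -0.86. Within 10 kb in place of 50 kb, 0 genes in place of 1 had Smad2/3 at stage 8. With only peaks scored at or above the median of their list, the genes counted were 1 in place of 3 for H3K4me3 at stage 9, 1 in place of 4 for H3K4me3 at stage 10.5, 1 in place of 2 for H3K4me1 at stage 8 and 1 in place of 3 for H3K27ac at stage 8. Of 264 log2 ratios of single genes, 183 moved by no more than their counting interval, 78 moved further and 3 of called genes changed sign. These were stk11 from stage 8 to stage 9, at 0.72 in the region with most tags and 0.59 in its 3' end regions, and zp2 from stage 9 to stage 10.5, at 0.38 in the region with most tags. Adding unlabelled regions within 1 kb, also chosen after seeing the data, took zp2 to -0.09 in that step and to -1.24 under inhibition. Labels of several genes named none of the 6, and all 6 passed the filter in each comparison, so those alternatives could change nothing. In the totals above they could only add to the counts and ratios that stayed the same. Counts as low as 27 tags for zp2 limit its ratios most.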
